A study of Mus musculus with 12 samples.

Results

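Calponins, transgelins, caldesmon and smoothelin are proteins that bind actin filaments, and 8 of their genes were examined here in mouse neural progenitor cells (NPCs): Cnn1, Cnn2 and Cnn3 (calponins), Tagln, Tagln2 and Tagln3 (transgelins), Cald1 (caldesmon) and Smtn (smoothelin). The members were chosen by name, as all probes whose RefSeq accession maps to one of these symbols, which gave 13 of the 55681 probes and 8 of the 21154 named genes on the array. The NPCs had been differentiated in culture and were kept in medium with EGF and bFGF. Expression was measured on 12 1-colour Agilent arrays in 6 groups of 2, with each array hybridized to cyanine 3-labelled material from 1 sample. Overexpression used retroviruses with Mkl1, Srf or, as their control, the fluorescent protein gene EGFP. Knockdown used retroviral hairpin RNAs, shActb_1 and shActb_2, which target the β-actin gene Actb, with shEGFP, a hairpin against the EGFP gene, as their control. Per the methods, infected cells were selected with puromycin, and the NPC line was NSEB5-2C or N31, which was made from it by way of induced pluripotent cells and carries doxycycline-dependent reprogramming genes; which of them went onto the arrays is not given. Duplicate arrays of the Actb knockdown were technical per the study, and the labels say nothing of separate cultures elsewhere, so p-values measure array-to-array error.

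Most of these proteins share a calponin homology domain, and calponins and transgelins also carry calponin-like repeats. Cnn1, Tagln (also called SM22α) and Smtn mark contractile smooth muscle, Cnn2, Cnn3 and Tagln2 are used outside muscle, Tagln3 is known from neurons, and Cald1 encodes a smooth muscle form and shorter non-muscle forms of an inhibitor of actomyosin that lacks the calponin homology domain. Serum response factor, encoded by Srf, binds the CArG box in DNA, and its cofactor Mkl1 is bound by monomeric actin and freed when such actin is scarce. Smooth muscle genes of the actin cytoskeleton are textbook targets of this pathway, which is why the paralogs were set beside each other here.

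The promoter sequences are shown because the motif bound by Srf can be searched in them. RefSeq windows of 300 bases (250 before to 50 after an annotated start, build GRCm38.p6) were matched by symbol for 7 of the 8 genes, 8 windows in all, and Tagln had no entry. An exact CArG box was found in 1 window, that of Cnn2, with its first base at position -56 from the start, against 1.63% of all 32851 windows of this length. With at most 1 mismatch to the box, the first of the 2 Cald1 windows also matched, with its first base at -203, and 21.1% of all windows did. The motif reads as itself on both strands, so both were searched at once. The windows of Cnn1, Cnn3, Smtn, Tagln2 and Tagln3 held no match to these letters. Below are the window with the exact box (Cnn2, chr10:79988350-79988649, plus strand), the window with the mismatched box (Cald1, chr6:34598254-34598553, plus strand) and that of the member with the largest change (Cnn1, chr9:22099003-22099302, plus strand), with the matches in capitals.
Cnn2: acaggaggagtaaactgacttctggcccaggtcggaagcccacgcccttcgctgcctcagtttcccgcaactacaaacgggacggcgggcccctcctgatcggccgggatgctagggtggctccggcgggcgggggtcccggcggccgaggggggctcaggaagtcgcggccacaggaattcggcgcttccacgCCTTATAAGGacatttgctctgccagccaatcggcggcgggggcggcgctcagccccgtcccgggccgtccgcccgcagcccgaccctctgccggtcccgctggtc
Cald1: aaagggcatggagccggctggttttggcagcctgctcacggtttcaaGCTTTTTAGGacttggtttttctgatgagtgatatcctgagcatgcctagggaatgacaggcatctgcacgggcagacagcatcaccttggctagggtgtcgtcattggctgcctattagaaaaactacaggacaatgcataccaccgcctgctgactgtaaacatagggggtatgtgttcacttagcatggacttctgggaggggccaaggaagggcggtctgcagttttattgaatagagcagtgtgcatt
Cnn1: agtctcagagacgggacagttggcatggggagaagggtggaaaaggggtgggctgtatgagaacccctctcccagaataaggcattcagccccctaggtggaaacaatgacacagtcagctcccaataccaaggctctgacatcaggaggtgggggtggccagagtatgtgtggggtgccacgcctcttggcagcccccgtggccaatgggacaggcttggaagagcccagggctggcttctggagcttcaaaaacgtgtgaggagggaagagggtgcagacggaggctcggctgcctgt

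The base content of these windows differed, with 59.3% G and C for Cnn1, 70.7% for Cnn2, 78.3% for Cnn3 and 50.3% and 47% for the Cald1 windows. A match is a description of the letters and not of binding, and these arrays did not measure binding.

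The labels were checked first. Levels are log2 signals relative to the 75th percentile of the array, so that 0 is the signal at that percentile. The Actb probe read 8.74 and 8.75 in shEGFP, 8.23 and 8.20 in shActb_1, and 8.12 and 8.06 in shActb_2, lower on 4 of 4 hairpin arrays. Both Srf probes went against the label: they read 2.64 and 2.78, and 2.45 and 2.87, in EGFP, and 0.24 and 0.26, and 1.20 and 1.32, on the arrays labelled Srf. Whether labels were exchanged, or the Srf transgene lacks the sequence of these probes, was not tested, so these are called the arrays labelled Srf, and each direction drawn from them carries this limit. Per the methods, the vectors carried open reading frames. Acta2 and Actg2, muscle actins of the Srf pathway, were higher by 3.37 and 4.60 on these arrays, and by 6.93 and 5.41 on those labelled Mkl1. The 2 Mkl1 probes (listed as Mrtfa) differed by 0.17 and 0.20 between the arrays labelled Mkl1 and EGFP, neither past the test (adjusted p = 0.313 and 0.12, limma). The Srf probes were higher on the arrays labelled Mkl1 than in EGFP, by 1.18 and 0.71 (adjusted p = 0.00121 and 0.000523). No probe of an overexpressed gene thus passed higher under its own label, and "with Mkl1" stands for the arrays labelled Mkl1. Between 59.3% and 72.5% of the probes on an array were well above background, and all 13 member probes were so on all 12 arrays. EGFP, Mkl1 and Srf shared a slide, as did shEGFP and shActb_1, whereas shActb_2 was alone on its slide, so for shActb_2 slide and hairpin cannot be told apart. On the slide of EGFP, Mkl1 and Srf, EGFP lay in row 2 and the others in row 1, so row and treatment cannot be told apart there. Of 12 NPC markers, 11 were above background on all arrays, with Olig2 the exception. Of these 11, 4 were higher and 1 lower on the arrays labelled Srf, against 12.9% and 12.5% of all probes. With Mkl1 2 were higher and 3 lower, against 12.4% and 8.34%. With shActb_1 0 were higher and 3 lower, against 5.29% and 4.12%, and with shActb_2 4 and 1, against 21.7% and 18.6%. Several of these counts are near the shares of all probes called. Nes and Sox9 were higher with Mkl1 by 1.16 and 1.04, and Sox2 differed by -0.89 with Mkl1 and -1.05 on the arrays labelled Srf. The log2 of the summed signal was 8.14 to 8.22 in EGFP, 8.34 to 8.40 with Mkl1 and 8.01 to 8.06 on the arrays labelled Srf. It was 7.98 to 8.01 in shEGFP, 8.10 to 8.12 in shActb_1 and 8.52 in shActb_2. The bright Vim carries this sum, at 8.37 in shActb_2 and 7.85 in shEGFP, whereas Sox1 passed lower with shActb_2 (-0.73). The part of these marker changes in the results was not tested.

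Cnn1 (calponin 1, NM_009922), which inhibits the myosin ATPase in smooth muscle, spanned the widest range of the 8 genes. Its only probe read -1.61 and -1.66 in EGFP, 5.02 and 4.84 on the arrays labelled Mkl1, and -0.50 and -0.49 on those labelled Srf. In the knockdown experiment it read -1.12 and -1.17 in shEGFP, 3.09 and 3.08 in shActb_1, and 3.64 and 3.60 in shActb_2. The order was Mkl1, shActb_2, shActb_1, Srf, shEGFP and EGFP from high to low, and no neighbours in it overlapped.

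Tagln (transgelin, NM_011526), an actin cross-linking protein of smooth muscle, was above the 75th percentile in every group. Its probe read 2.97 and 2.25 in EGFP, 4.99 and 4.86 on the arrays labelled Mkl1, 4.86 and 5.05 on those labelled Srf, 3.24 and 2.88 in shEGFP, 5.27 and 5.25 in shActb_1, and 5.63 and 5.55 in shActb_2. All 8 treated arrays lay above all 4 control arrays. The arrays labelled Mkl1 and Srf overlapped, as did the control groups, and the SD of the EGFP duplicates, 0.50, was the largest of any member probe in any group.

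Smtn (smoothelin) is found in contractile smooth muscle and had 2 probes. The brighter, called the lead probe (NM_001284428), read 2.95 and 3.25 in EGFP, 4.12 and 4.15 on the arrays labelled Mkl1, 2.88 and 3.02 on those labelled Srf, 2.57 and 2.45 in shEGFP, 3.25 and 3.21 in shActb_1, and 3.66 and 3.63 in shActb_2. Here the arrays labelled Srf overlapped EGFP, and shActb_1, although above shEGFP, overlapped EGFP as well. The other probe (NM_013870) gave the same order at a lower signal, and the distance between the probes varied by 0.26 over the 12 arrays.

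Cald1 (NM_145575) was flat. Its lead probe lay between 2.50 and 2.74 and its other probe between 2.33 and 2.61 over all 12 arrays. The group means spanned 0.15 at the lead probe and 0.17 at the other, and every group overlapped its neighbours in the order of levels.

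**Figure D1:**
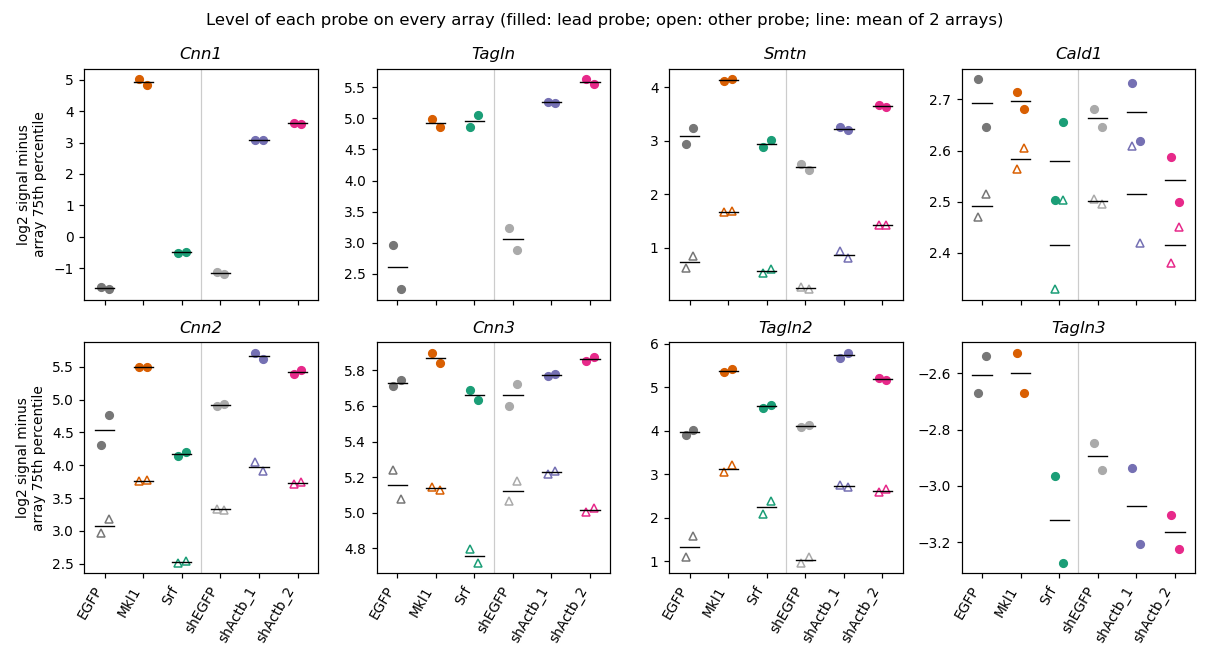
Log2 signal relative to the 75th percentile of the array for each probe of the 8 genes on every array, by group (x axis), with a line at the mean of 2 arrays. Each panel has its own vertical scale. Filled circles are lead probes and open triangles the other probe; Cnn1 spans from -1.66 to 5.02, whereas both Cald1 probes stay between 2.33 and 2.74.

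Of the members used outside muscle, Cnn2 (calponin 2, NM_007725), the calponin of many motile cells, read 4.31 and 4.76 in EGFP, 5.50 and 5.49 on the arrays labelled Mkl1, and 4.14 and 4.20 on those labelled Srf. It read 4.91 and 4.94 in shEGFP, 5.71 and 5.62 in shActb_1, and 5.39 and 5.45 in shActb_2. The arrays labelled Mkl1 and both hairpins lay above, and the arrays labelled Srf below, their control at both Cnn2 probes, with no overlap between neighbours in the order.

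Tagln2 (transgelin 2, NM_178598), the transgelin of non-muscle cells, read 3.90 and 4.03 in EGFP, 5.35 and 5.41 on the arrays labelled Mkl1, and 4.53 and 4.59 on those labelled Srf. Its lead probe read 4.08 and 4.14 in shEGFP, 5.68 and 5.80 in shActb_1, and 5.22 and 5.17 in shActb_2. Every treated array lay above every control array. Of the 5 members with 2 probes Tagln2 had the least agreement, with a distance between them that ran from 2.20 to 3.12.

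Cnn3 (calponin 3, NM_028044), an acidic calponin present in brain, lay between 5.60 and 5.90 at its lead probe and between 4.72 and 5.24 at its other probe on all arrays. Tagln3 (NM_019754), the transgelin of neurons, lay between -3.27 and -2.53. Both were thus narrow in range, and at Tagln3 4 pairs of neighbouring groups overlapped.

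The first comparison asked how these genes differed between the arrays labelled Srf and EGFP, which shared a slide. Tagln rose most, by 2.34 on the log2 scale (5.08-fold, SE 0.22), followed by Cnn1 by 1.14 (2.21-fold, SE 0.07) and Tagln2 by 0.59 (1.51-fold, SE 0.07), with adjusted p = 0.000334, 5.2e-05 and 0.000977 (limma). Tagln3 fell by 0.51 (SE 0.13, adjusted p = 0.0264). Thus 4 of 8 lead probes passed, 3 higher and 1 lower, against 12.9% higher and 12.5% lower of all 35577 probes tested, and 2 were also over 2-fold higher, against 3.29%. Smtn was not past the test, with a difference of -0.15 (95% interval -0.39 to 0.09), nor were Cald1 (-0.11, interval -0.29 to 0.06), Cnn3 (-0.07, interval -0.21 to 0.08) and Cnn2 (-0.37, adjusted p = 0.0725) at their lead probes. The other probes of Cnn2 and Cnn3 fell by 0.54 and 0.40 (adjusted p = 0.00269 and 0.00656), and the other Tagln2 probe rose by 0.90 (adjusted p = 0.00657). The median of the 8 lead probes, -0.09, stood beside -0.04 over all probes tested.

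Single arrays carried part of these calls. Tagln3 lost its call without EGFP replicate 1 (adjusted p = 0.053), EGFP replicate 2 (0.0881) or Srf replicate 2 (0.159), with no filter on dim probes (0.0588) and in a fit of the 6 overexpression arrays alone (0.0721), and the other probes of Tagln2 and Cnn3 lost theirs without Srf replicate 2 (0.0516 and 0.0556). The other Cnn3 probe also lost its call in that fit of the overexpression arrays (0.0547). Without EGFP replicate 1, Cnn2 at its lead probe passed (-0.60, adjusted p = 0.00205), as did the Smtn probes (-0.30 and -0.28, adjusted p = 0.0476 and 0.0342). Cnn2 at its lead probe also passed with normexp background correction (-0.42, adjusted p = 0.02), with a variance trend (-0.37, 0.0237) and as the mean of its probes (-0.46, 0.0179). With the mean of a gene's probes Cnn3 passed as well (-0.23, adjusted p = 0.0332), so that 6 members were called, 3 higher and 3 lower. Tagln ranged from 1.99 to 2.70 as arrays were left out.

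The second comparison set the arrays labelled Mkl1 against the same EGFP arrays. All 3 smooth muscle markers rose, Cnn1 by 6.56 (94.6-fold, SE 0.07, adjusted p = 2.9e-08), Tagln by 2.32 (4.99-fold, SE 0.22, adjusted p = 0.000814) and Smtn by 1.04 (2.06-fold, SE 0.10, adjusted p = 0.000942, all limma). Among the non-muscle members, Tagln2 rose by 1.42 (2.67-fold, SE 0.07) and Cnn2 by 0.96 (1.94-fold, SE 0.13), with adjusted p = 7.06e-05 and 0.00289. Cnn3 (0.14, 95% interval 0.00 to 0.28 after rounding, adjusted p = 0.148), Tagln3 (0.01, interval -0.30 to 0.31) and Cald1 (0.00, interval -0.17 to 0.18) were not past the test. In all, 5 of 8 lead probes passed, all higher, against 12.4% of 35793 probes called higher and 8.34% lower. Over 2-fold higher there were 4, against 1.29% of all probes. All 3 second probes of Smtn, Cnn2 and Tagln2 rose with their lead probes, by 0.94, 0.70 and 1.80. These 8 calls at the adjusted p held under each other processing of the values and with each array left out, whereas Cnn2 and the other Smtn probe were under 2-fold. The median of the lead probes was 1.0, and -0.03 over all probes tested.

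The Actb hairpins were each compared with shEGFP. With shActb_1, Cnn1 rose by 4.23 (18.7-fold, SE 0.07), Tagln by 2.20 (4.59-fold, SE 0.22), Tagln2 by 1.63 (3.09-fold, SE 0.07), Cnn2 by 0.74 (1.67-fold, SE 0.13) and Smtn by 0.72 (1.65-fold, SE 0.10). Their adjusted p (limma) were 7.31e-07, 0.00138, 4.74e-05, 0.0128 and 0.00593. Cald1 (0.01, 95% interval -0.17 to 0.19), Cnn3 (0.12, interval -0.03 to 0.26) and Tagln3 (-0.18, interval -0.49 to 0.13) were not past the test. That made 5 of 8 lead probes, all higher, against 5.29% of 36268 probes called higher and 4.12% lower, and 3 were over 2-fold higher, against 0.485%. The median of the lead probes was 0.73, and 0.01 over all probes tested. The call of Cnn2 was lost when any 1 of the 4 arrays compared was left out (adjusted p = 0.0622 to 0.0921), with a difference of 0.69 to 0.79. Smtn at its lead probe missed the threshold without shActb_1 replicate 1 (0.70, adjusted p = 0.0508).

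With shActb_2, Cnn1 rose by 4.76 (27.1-fold, SE 0.07), Tagln by 2.53 (5.78-fold, SE 0.22), Smtn by 1.14 (2.20-fold, SE 0.10), Tagln2 by 1.09 (2.12-fold, SE 0.07), Cnn2 by 0.50 (1.42-fold, SE 0.13) and Cnn3 by 0.20 (1.15-fold, SE 0.06). Their adjusted p (limma) were 2.8e-07, 0.000269, 0.000303, 0.000103, 0.0184 and 0.0342. Cald1 (-0.12, 95% interval -0.30 to 0.06) and Tagln3 (-0.27, interval -0.58 to 0.04) were not past the test. Thus 6 of 8 lead probes passed, all higher, against 21.7% of 36202 probes called higher and 18.6% lower, and 4 were over 2-fold higher, against 1.73%. The median of the lead probes was 0.79, and -0.02 over all probes tested. The small difference of Cnn3 was not seen at its other probe (-0.11, adjusted p = 0.281), which passed lower under quantile normalization (-0.30, adjusted p = 0.0134). It ended under that normalization (0.02, adjusted p = 0.867), with no filter on dim probes (0.102), in a fit of the 6 knockdown arrays alone (0.0589) and without shEGFP replicate 1 (0.14, adjusted p = 0.201), shActb_2 replicate 1 (0.22, 0.0936) or shActb_2 replicate 2 (0.19, 0.174), and as the mean of both probes Cnn3 differed by 0.05 (adjusted p = 0.581). Cnn2 lost its call under quantile normalization (0.31, adjusted p = 0.121) and when any 1 of the 4 arrays was left out (0.0533 to 0.104). Its other probe rose by 0.41 (adjusted p = 0.00644), a call lost under quantile normalization (0.0505) and without shActb_2 replicate 2 (0.0513).

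**Figure D2:**
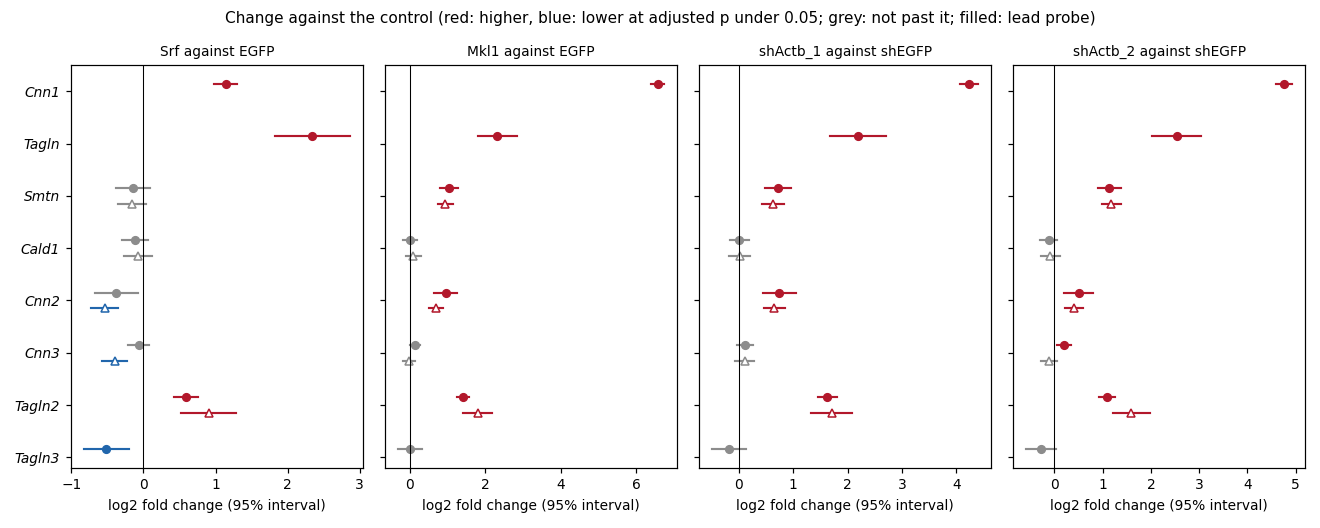
Log2 fold change of each probe against its control with its 95% interval (x axis, a scale for each panel) for 4 comparisons. Filled circles are lead probes and open triangles the other probe; red and blue mark probes higher and lower at an adjusted p under 0.05. Cnn1, Tagln and Tagln2 are to the right of 0 in all 4 panels, and Cald1 passes in none.

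The paralogs were then set beside each other within an array, as the difference of the log2 levels of the lead probes. Signals of different probes cannot be ranked, so only the change of this gap between groups was read. The gap of Cnn1 to Cnn2 was -5.92 and -6.43 in EGFP, -0.49 and -0.65 on the arrays labelled Mkl1, and -4.64 and -4.68 on those labelled Srf. In the knockdown it was -6.02 and -6.11 in shEGFP, -2.62 and -2.53 in shActb_1, and -1.76 and -1.86 in shActb_2. Cnn1 therefore gained on Cnn2 by 1.52 on the arrays labelled Srf, 5.60 with Mkl1, 3.49 with shActb_1 and 4.26 with shActb_2. Against Cnn3 it gained 1.21, 6.42, 4.11 and 4.56 in the same order.

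The gaps of Tagln moved less than those of Cnn1 with Mkl1 and the hairpins, and more on the arrays labelled Srf. Tagln gained on Tagln2 by 1.75 on the arrays labelled Srf, 0.90 with Mkl1, 0.57 with shActb_1 and 1.44 with shActb_2. Single control arrays carried part of this: the gain was 0.49 with Mkl1 without EGFP replicate 2, and 0.35 with shActb_1 without shEGFP replicate 2. The gap was -0.94 and -1.77 in EGFP, -0.36 and -0.55 with Mkl1, and 0.33 and 0.46 on the arrays labelled Srf. Against the neuronal paralog Tagln3, Tagln gained 2.86, 2.31, 2.38 and 2.80 in that order. In all 16 cases (4 gaps in 4 comparisons) the treated arrays lay above the control arrays with no overlap. These cases are not independent, because they reuse Cnn1, Tagln and the same control arrays. Cnn1 and Tagln by themselves also rose without overlap in each of these comparisons. The share of other probe pairs with such a gap was not computed. An exact permutation test of 2 arrays against 2 cannot go below p = 0.333, which is what each of the 16 gave (two-sided).

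**Figure D3:**
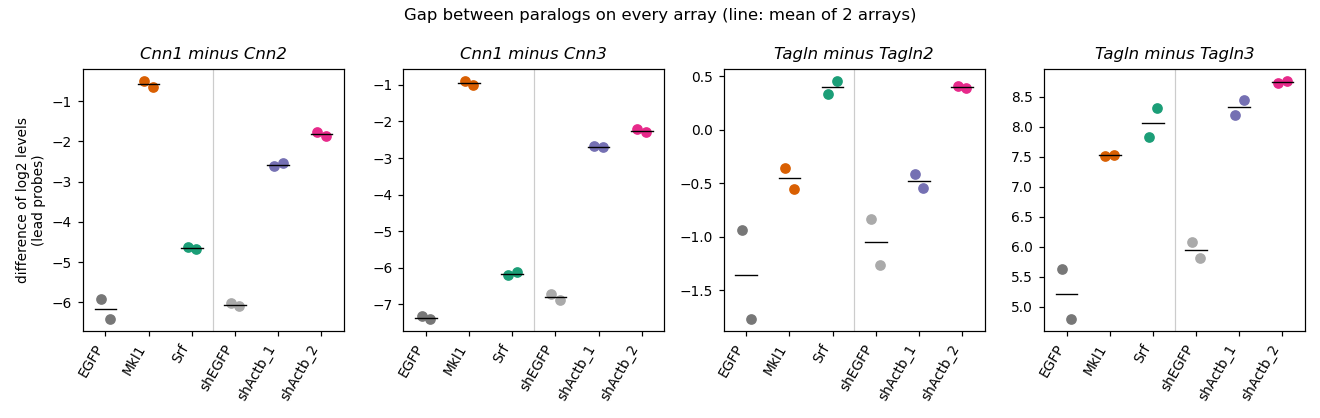
Difference of the log2 levels of the lead probes of paralogs on each array (y axis, a scale for each panel) by group, with a line at the mean of 2 arrays. The gap of Cnn1 to Cnn2 runs from -6.43 in EGFP to -0.49 with Mkl1, and treated arrays lie above their controls in all 4 panels.

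Treatments that share a control were compared directly. The arrays labelled Mkl1 exceeded those labelled Srf in 6 of 8 lead probes and were lower in none, against 14.5% of 35732 probes called higher and 11.1% lower, and in 3 by over 2-fold, against 1.74%. The difference was 5.42 for Cnn1 (SE 0.07), 1.33 for Cnn2 (SE 0.13), 1.19 for Smtn (SE 0.10) and 0.82 for Tagln2 (SE 0.07), with adjusted p = 1.14e-07, 0.000344, 0.000203 and 0.0002 (limma). For Tagln no difference was detected (-0.03, 95% interval -0.54 to 0.49), so that values up to these bounds are possible. Cnn3 and Tagln3 were higher by 0.21 and 0.52 (adjusted p = 0.0442 and 0.0246). Cnn3 at its lead probe missed the threshold when any 1 of the 4 arrays was left out (adjusted p = 0.109 to 0.206), and Tagln3 did without Mkl1 replicate 1 (0.13), Mkl1 replicate 2 (0.068) or Srf replicate 2 (0.142) and with normexp background correction (0.25, adjusted p = 0.0937). Both also lost the call with no filter on dim probes (0.142 for Cnn3 and 0.057 for Tagln3) and in the fit of the overexpression arrays alone (0.161 and 0.0763), and Cnn3 with normexp (0.0701), under quantile normalization (0.07, adjusted p = 0.517) and with the replicate number as a block (0.0571). Cnn2 was above EGFP with Mkl1 and below it on the arrays labelled Srf at both probes, although there only the other probe passed the test, and its other probe gave 1.24 for Mkl1 against Srf (adjusted p = 5.56e-05).

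The hairpins differed from each other at 3 of 8 lead probes, 2 higher and 1 lower in shActb_2, against 16.7% higher and 15.4% lower of 35446 probes. This count is near those shares and was not read as particular to these genes. Cnn1 was higher in shActb_2 by 0.53 (SE 0.07, adjusted p = 0.00185, limma) and Smtn by 0.42 (SE 0.10, adjusted p = 0.0193), and Tagln2 was lower, with a difference of -0.54 (SE 0.07, adjusted p = 0.00186). None was over 2-fold (limma; 5.03% of all probes were), and 3 of the 8 had an unadjusted p under 0.05. The other Tagln2 probe was not past the test (-0.11, interval -0.50 to 0.27), nor was the mean of both probes (-0.33, adjusted p = 0.0596), and the other Smtn probe did (0.55, adjusted p = 0.0032). Smtn at its lead probe lost this call with no filter on dim probes (0.0502) and when any 1 of the 4 arrays was left out (adjusted p = 0.0774 to 0.0928). Cnn2 was not past the test (-0.24 and -0.25 at its probes), but both probes passed lower in the fit of the knockdown arrays alone (adjusted p = 0.0408 and 0.045), and its other probe also under quantile normalization (0.024), the stricter filter on dim probes (0.0447) and a variance trend (0.0183). The other Cnn3 probe passed lower under quantile normalization (-0.30, adjusted p = 0.0169) and a variance trend (-0.21, 0.0181). Tagln differed by 0.33 (interval -0.18 to 0.84). Actb itself read 0.12 lower in shActb_2 than in shActb_1, which was not past the test (difference -0.12, adjusted p = 0.113).

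**Figure D4:**
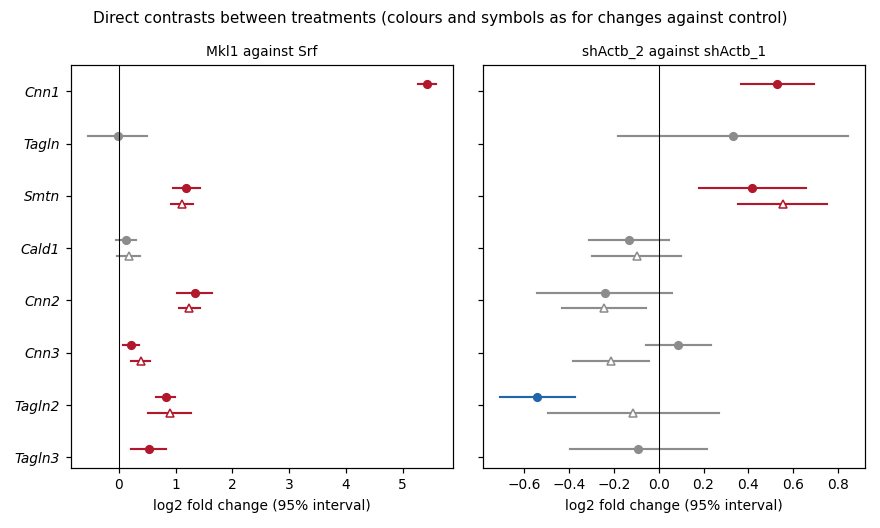
Log2 fold change with its 95% interval (x axis, a scale for each panel) for Mkl1 against Srf and for shActb_2 against shActb_1, with symbols and colours as for the changes against control. Cnn1 differs by 5.42 between the arrays labelled Mkl1 and Srf, and Tagln by -0.03.

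Whether Mkl1 and the Actb hairpins moved these genes to a different extent was tested as the Mkl1 effect minus the mean effect of the hairpins. Cnn1 passed: its rise with Mkl1 was larger by 2.07 (SE 0.09), or 4.20-fold, with an adjusted p of 0.000718 in limma. It was the only member of 8 to pass, against 1.39% higher and 1.34% lower of 38998 probes. Without EGFP replicate 2, Cnn2 passed as well and the count was 2. The controls of the experiments were themselves not alike: shEGFP was higher than EGFP by 0.49 in Cnn1 (adjusted p = 0.00254) and differed by -0.59 in Smtn (adjusted p = 0.00555), so 1 of 8 was higher and 1 lower, against 16.9% and 20.6% of 37709 probes. These controls lie on different slides, so slide and vector cannot be told apart, and each treatment was read against its own control.

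Other smooth muscle contractile genes were counted from a list of 18, again by their lead probes and at the same threshold. The shares of all probes called higher and lower, against which the counts of each list stand, were 12.9% and 12.5% for the arrays labelled Srf, 12.4% and 8.34% for Mkl1, 5.29% and 4.12% for shActb_1, and 21.7% and 18.6% for shActb_2. The counts are over the 14 genes of the list above background on all 12 arrays, a filter chosen after the data were seen. On the arrays labelled Srf 4 of 14 were higher and 2 lower, led by Actg2 (4.60, SE 0.11), a smooth muscle actin, with Synpo2 lowest (-1.42, SE 0.12), an actin-bundling protein. On the arrays labelled Mkl1 8 of 14 were higher and 3 lower, with Acta2, the smooth muscle α-actin, highest (6.93, SE 0.08) and Itga8, an integrin chain, lowest (-1.81, SE 0.10). With shActb_1 8 of 14 were higher and 2 lower, with Acta2 at 4.42 (SE 0.08) and Pgm5 at -1.22 (SE 0.13). With shActb_2 10 of 14 were higher and 1 lower, with Actg2 at 5.29 (SE 0.11) and Pgm5 at -1.68 (SE 0.13). The actin genes are close paralogs, so their probes are uncertain to that extent. The medians of these 14 were 0.00, 0.57, 0.51 and 0.73, beside medians between -0.04 and 0.01 over all probes. Myh11, Lmod1, Kcnmb1 and Myocd were not above background on every array and are left out of these counts; Myh11 (smooth muscle myosin) and Myocd (myocardin) are markers of mature smooth muscle. Myh11 was well above background on both arrays labelled Mkl1, both labelled Srf and both of shActb_2, and on no array of EGFP, shEGFP or shActb_1.

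Proteins with a calponin homology domain outside the 8 genes were counted from another list of 18. Of the 16 above background on all arrays, 3 were higher and 1 lower on the arrays labelled Srf. Among those past the test there, the guanine nucleotide exchange factor Arhgef6 was highest (1.98, SE 0.14) and Vav3 lowest (-0.53, SE 0.09). With Mkl1 3 were higher and 3 lower, from Lmo7 (1.17, SE 0.16) to Limch1 (-1.73, SE 0.14). With shActb_1, 1 of 16 was higher and 3 lower, with Lmo7 at 0.68 and Limch1 at -1.66. With shActb_2, 4 of 16 were higher and 7 lower, and the smoothelin-like Smtnl2 was highest (1.85, SE 0.20) and the actin-oxidizing Mical2 lowest (-0.68, SE 0.08). Several of these counts are near the shares of all probes called, and the medians of the list lay between -0.22 and 0.02.

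Kinases and calmodulins that act on calponin or caldesmon were counted from a list of 16. There were 4 higher and 4 lower on the arrays labelled Srf, 5 and 1 with Mkl1, 0 and 3 with shActb_1, and 6 and 1 with shActb_2, to be read beside the same shares. Pak3, a p21-activated kinase of neurons, was the lowest in each, at -1.34, -0.98, -0.61 and -1.12 (SE 0.10 each). Among those past the test, the highest was Camk2a on the arrays labelled Srf (1.41, SE 0.36) and Pak2 with Mkl1 and shActb_2 (0.41, SE 0.07, and 0.42, SE 0.08). With Mkl1 Camk2a was higher than Pak2, at 1.01, but not past the test.

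Markers of other cell types were read beside these results. The log2 of the summed signal of 7 fibroblast markers (6 above background on all arrays) was 7.42 to 7.43 in EGFP, 6.65 to 6.91 with Mkl1, 6.62 to 6.67 on the arrays labelled Srf, 7.08 to 7.17 in shEGFP, 6.69 to 6.83 in shActb_1 and 6.35 to 6.40 in shActb_2, so it was lower in each treated group while Cnn1 and Tagln were higher. The bright collagens carry this sum and single markers went both ways: Thy1 differed by 1.49 on the arrays labelled Srf, 3.09 with Mkl1, 1.63 with shActb_1 and 2.90 with shActb_2, and Dcn by 0.85 on the arrays labelled Srf, all passing higher. Dcn and Pdgfrb passed lower with Mkl1 and both hairpins, Dcn by -1.79, -1.96 and -1.55. The summed level of the 18 smooth muscle genes was 8.46 to 8.53 in the 2 control groups and on the arrays labelled Srf, and 9.27 to 9.48 in the other groups. The bright Myl6, at 7.62 in EGFP and 7.51 on the arrays labelled Srf, carries much of this sum, which thus hides changes of dimmer genes. On the arrays labelled Srf 4 of 14 passed higher, with Acta2 and Actg2 by 3.37 and 4.60, and 2 passed lower. Of 8 neuron markers, 5 were above background on all arrays, with Dcx, Elavl3 and Rbfox3 the exceptions; their summed level was 3.40 to 3.49 in EGFP, 3.83 to 3.96 with Mkl1, 3.23 to 3.28 on the arrays labelled Srf, 3.15 to 3.17 in shEGFP, 2.65 to 2.66 in shActb_1 and 3.07 to 3.14 in shActb_2. Its members went both ways too, with Nefl higher by 1.41 and 2.84, Map2 at -0.87 and -1.49 and Stmn2 at -3.88 and -1.46 on the arrays labelled Srf and Mkl1, and Tubb3 higher by 1.53 on those labelled Srf. Of 4 endothelial markers 2 (Cdh5 and Tek) were above background on no array and 2 (Pecam1 and Kdr) on all. Kdr read 2.51 in EGFP and 3.01 in shEGFP. Of 4 leukocyte and microglia markers 3 were above background on all arrays. The summed level of this list was 2.46 to 2.62 on the arrays labelled Srf and 1.84 to 1.85 with Mkl1 against 1.26 to 1.52 in EGFP. On the arrays labelled Srf Cd68 and Csf1r passed higher (1.12 and 1.44), and Ptprc was at -0.29 and not past the test. Of these 3, which were above background on all arrays, 2 were higher and 0 lower, against 12.9% and 12.5% of all probes. Aif1, which was not above background on every array, read -4.84 against -3.55 in EGFP and was the only one called lower. The part of such cells in the results was not tested, and in these bulk samples more cells of a type and more RNA per cell cannot be told apart.

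Genes with the most similar pattern were sought among 5419 named genes whose group means spanned at least 1 on the log2 scale, by Pearson's r of the log2 levels over the 12 arrays, which are pairs from 6 groups on 3 slides. A gene entered if it was well above background on both arrays of any 1 group, so some were dim elsewhere. The values of r given are the highest among these genes and were not tested. Nearest to Cnn1 were Abracl (r = 0.996), Acta1 (0.985) and Tpm2 (0.983). Nearest to Tagln were Nexn (0.965), Kcnmb1 (0.962) and 4930426L09Rik (0.947). Kcnmb1 was not above background on every array (-7.19 in EGFP and -7.72 in shEGFP), so its r rests partly on dim values. Nearest to Smtn were Fstl3 (0.989), Them6 (0.984) and Cldn6 (0.984), and to Cnn2 Prune2 (0.978), LOC547349 (0.976) and Vcl (0.971). Among those nearest to Tagln2 were Pkp2 (0.957) and Aif1l (0.956). For the narrow members the values were lower, at most 0.946 for Cnn3 (Syne3, followed by Prkab2 and Acap1), 0.904 for Tagln3 (Cd79b, Defb2 and Perm1) and 0.861 for Cald1 (Olfr606, Klk1 and Tas2r134).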

How the data were processed

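Per the labels and the study's methods, RNA from NPCs was labelled with cyanine 3 and hybridized to 1-colour Agilent mouse arrays, which the authors scanned and quantified with Feature Extraction. The deposited intensity is the background-subtracted processed signal of each spot, not normalized between arrays. The authors also deposited a table of log2 values, which matched log2 of these intensities minus a constant for each array. The labels and the methods name different array formats, and the files hold 62976 features.

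Here log2 was taken, control spots and outlier-flagged spots were dropped, replicate spots of a probe were averaged, and each array's 75th percentile was subtracted. Accessions were matched to RefSeq (GRCm38.p6) for names, which 28026 of 55681 probes (50.3%) received; the array was built on another build, so no probe coordinates are given. Groups came from the sample titles. All 12 arrays were fitted with limma 3.58.1 (lmFit and eBayes, R 4.3.3), 1 mean per group, two-sided, on probes that both arrays of a compared group had well above background. A probe passed at a Benjamini-Hochberg adjusted p under 0.05 over all probes tested; the count also over 2-fold is given beside it. A gene's lead probe has the highest mean level. The number of arrays limits the precision. The fit was tested on simulated data.

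The members and lists were chosen with earlier results of these data known. Named genes are the members, the targeted genes, the highest and lowest passing gene of each list and the 3 most similar genes of each member. One gene under this rule is not reported here. Alternatives were normexp background correction (offset 50, using median spot signals, as the files hold no mean), the deposited log2 table, quantile normalization, no filter or a stricter filter for dim probes, the arrays of one experiment, the replicate number as a block, a variance trend, the mean of a gene's probes, each array left out and the 2-fold threshold. Motifs were searched in RefSeq promoter windows.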

Additional observations from a re-analysis of the deposited data

Results flagged for a closer look

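The hairpins gave different effects on Cnn1, Smtn and Tagln2 by the direct test of shActb_2 against shActb_1 (limma), with the same shEGFP control. The log2 difference was 0.53 for Cnn1, 0.42 and 0.55 for the lead and other probes of Smtn, and -0.54 for the lead probe of Tagln2, which as the mean of both probes was -0.33 (adjusted p = 0.0596). These are 3 of 8 members, a count near the shares of all probes called, which were 16.7% higher and 15.4% lower. None of the 8 was over 2-fold, against 5.03% of all probes. The lead probe of Smtn lost its call when any 1 of the 4 arrays was left out (adjusted p = 0.0774 to 0.0928). The part of the slide in these differences was not tested, since no other group shared the slide of shActb_2, and slide and hairpin cannot be told apart.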

How the results depend on the processing

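All 5 members called with Mkl1 were called under every other processing at the adjusted p and with each array left out, and 4 of them also at the 2-fold threshold. At that threshold the counts of members were 2 on the arrays labelled Srf, 3 with shActb_1, 3 for Mkl1 against Srf and 0 between the hairpins. As each array was left out, the counts were 3 to 4 with shActb_1 and 1 to 2 for the Mkl1 effect against the mean hairpin effect. With shActb_2, quantile normalization called 4 higher and 1 lower (Cald1, -0.26, adjusted p = 0.042). Over all probe values and settings, 52 calls were lost and 16 gained; the cause was not tested. Changes of sign occurred only in values near 0 that passed no test in either setting. With quantile normalization Cald1 turned to -0.078 with Mkl1 and -0.061 with shActb_1 (other probe -0.049), the other Cnn3 probe to -0.0047 with shActb_1, and Tagln3 to 0.021 between the hairpins. With normexp, Tagln3 turned to -0.059 with Mkl1 and the other Cald1 probe to -0.094 with shActb_1, and with the mean of a gene's probes Cnn3 turned to -0.062 between the hairpins. With arrays left out, the ranges that crossed 0 were -0.30 to 0.0032 for Smtn and -0.16 to 0.011 for the other Cald1 probe on the arrays labelled Srf, -0.042 to 0.052 for Cald1, -0.10 to 0.063 for the other Cnn3 probe and -0.066 to 0.078 for Tagln3 with Mkl1, -0.046 to 0.068 and -0.081 to 0.11 for the Cald1 probes with shActb_1, -0.12 to 0.068 for Tagln for Mkl1 against Srf, and -0.23 to 0.044 for Tagln3 between the hairpins. Of 64 gap values under other settings, 16 moved by more than the spread of duplicates and none changed sign.

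The deviations of same-numbered arrays correlated at -0.14 to 0.26, positive for EGFP with Srf (0.26), EGFP with Mkl1 (0.16) and shEGFP with shActb_2 (0.24) but not for every pair, so the numbers were not taken to pair the samples. With the replicate number as a block, the probes called moved from 9056 to 9355 for the arrays labelled Srf and from 3414 to 3456 with shActb_1, and the block ended 1 member call, that of Cnn3 for Mkl1 against Srf (0.21, adjusted p = 0.0571), leaving 5 of 6. A slide block could not be fitted because each group lies on 1 slide. The Srf, Mkl1 and shActb_1 comparisons lie within a slide. Within it EGFP lies in row 2 and Mkl1 and Srf in row 1, so row and treatment cannot be told apart in the overexpression comparisons. The Mkl1 effect against the hairpin effect needs the arrays of both experiments, so it was not run within 1 experiment.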
